A study of Mus musculus with 12 samples.

Results

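Bone-marrow derived macrophages of the group named Tumor without Myelin were compared with macrophages of the group named Control over all genes of the deposited count table. The members are 6 of the 12 mouse RNA-seq libraries of the study, chosen by the treatment in their labels, 3 in each group, and the labels number the libraries of either group mn 957, 958 and 016. The study set macrophages beside brain tumor material and myelin, the lipid sheath of nerve fibres, in assays outside the animal, and the other 6 libraries are its Full Tumor and Myelin Alone groups. All groups share the same source, bone marrow combined with dissociated brain tumor per the labels, and in all of them the macrophages were sorted by the red fluorescent protein dTomato before RNA was purified, and their cDNA was primed on the poly(A) tail and extended by template switching.

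The labels used here do not say what the Control macrophages received, how myelin was removed, how long the exposure lasted, which of the study's tumor models gave the tissue, the age or sex of the animals, or what mn stands for. Nothing in them states that the 3 libraries of a group came from separate animals or cultures. Every p-value therefore reflects the variation among libraries alone, and that variation may be technical. In the main fit it was estimated over all 12 libraries, Full Tumor and Myelin Alone included. The comparison was defined as paired by mn number, and libraries of the same number also deviated together (processing is described after the results).

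Macrophages are phagocytes that recognise dying cells, antibodies, complement and microbial molecules through surface receptors, digest what they take up in lysosomes, and pass on the cholesterol they recover through exporters and lipoproteins. In brain tumors, macrophages that enter from the blood stand beside microglia, the resident macrophages of the brain, and take up some genes that are used as microglia markers. Type I interferon genes, antioxidant genes under the factor NRF2 and chaperones of the endoplasmic reticulum are known programs that such cells raise or lower with their surroundings.

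The 6 libraries held 17071673 to 20725607 counts, with 16779 to 17626 genes detected, and 0.287% to 0.941% of the counts came from mitochondrially encoded transcripts. Defining macrophage genes were present in every library, with Csf1r between 1220 and 1800 and Cd68 between 3170 and 3590 in units of CPM, the count scaled to library size. The 25 genes of the macrophage list summed to 20186 to 23290 CPM in Control and 23848 to 27022 CPM in Tumor without Myelin, so the libraries bore the markers of their labelled cell type. The libraries numbered 016 stood apart from the others in several gene groups, and values are therefore given for each number. Wherever 3 values follow each other, they belong to 957, 958 and 016 in that order.

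Macrophages with myelin-free tumor material carried higher transcript levels of 4 of 9 tested MS4A genes and 4 of 10 tested microglia markers. The complement genes C1qa, C1qb and C1qc were higher too. Transcripts of the high-affinity antibody receptor Fcgr1, the sialic acid receptor Siglec1 and the lipid transport genes Pltp, Abca1 and Apoe were also higher. So were those of the chaperones Hspa5, Pdia6, Calr and Pdia3. The macrophages carried lower transcript levels of the protease inhibitor Serpinb9b, the glutathione transferases Gstm1 and Mgst2, the asparagine synthetase Asns and the folate enzyme Mthfd2. These are RNA values, and protein was not measured in these libraries. Of 13414 genes tested, 75 were higher and 25 lower at an adjusted p below 0.05 (edgeR quasi-likelihood test with the mn number as a block, Benjamini-Hochberg adjustment), which is 0.559% and 0.186% of the tested genes. Such genes are called higher or lower from here on. The log2 fold changes of the called genes ran from 0.54 to 6.70 among those higher and from -3.80 to -0.34 among those lower, and 48 of the 100 changed by 1 or more on the log2 scale, 39 of them upward.

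Each of the 100 called genes moved 1 way in all 3 pairs, against 32.3% of the tested genes, though the paired test itself favours such genes. The 3 Tumor without Myelin libraries lay entirely above those of Control for 49 of the 75 called higher, against 4.25% of all tested genes. They lay entirely below for 18 of the 25 called lower, against 3.44% of all. The calls came from these same libraries, so these shares are no separate evidence for them. The median log2 fold change of all tested genes was 0.00.

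Without the block, 0 genes passed, with a smallest adjusted p of 0.123 and 548 genes at an unadjusted p below 0.05. Leaving out 1 library moved the count of calls most for Tumor without Myelin 016 (13 genes), Control 957 (18 genes), Tumor without Myelin 958 (29 genes), Tumor without Myelin 957 (31 genes) and Control 958 (38 genes), and without Control 016 there were 95 calls, of which 49 were among the 100. Without all libraries of number 016, 142 genes were called higher and 11 lower, and 45 of these were among the 100. Without number 957 there were 6 calls and without number 958 there were 4. When only the 6 libraries compared were fitted, 5 genes were called higher and 1 lower, all 6 of them among the 100, and the other calls were lost. Each of the 100 genes kept its direction under every single-library omission that left it testable. Ms4a6b, Ms4a6c, Aif1, Ctsc, Fcrls, Pltp, Sat1, Selenop, Siglec1, Tgm2 and Serpinb9b are the 11 genes that stayed called whichever single library was left out. For the other genes, the largest adjusted p reached when any 1 library was left out is given beside the call as "up to". Without number 016, the calls were 6 of 8 tested MS4A genes, 5 of 18 targets of the oxysterol receptor LXR and 1 of 22 Toll-like receptors and adaptors on the higher side, 5 higher and 1 lower of 15 complement genes, and 4 lower of 31 NRF2 genes. Without number 957 each gene list held at most 2 calls, and without number 958 at most 1. In these bulk libraries, fewer cells of a type and less RNA per cell cannot be told apart.

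**Figure D1:**
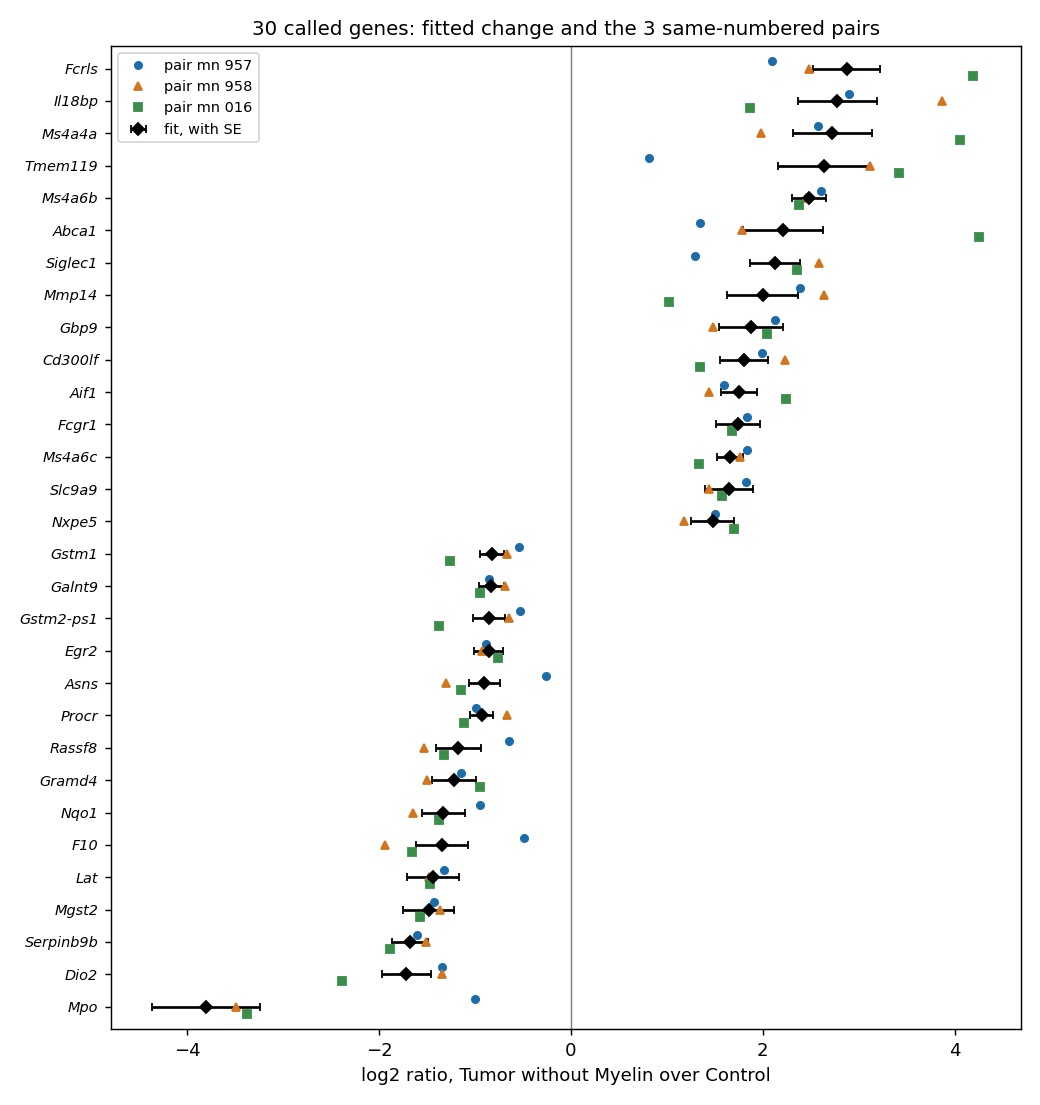
Log2 ratios of the 15 called genes with the highest and the 15 with the lowest change among those with at least 10 CPM (x axis, log2 ratio of Tumor without Myelin over Control; y axis, gene). Diamonds and bars are the fitted change with its standard error, and coloured points are the same-numbered pairs. All pairs of a gene lie on 1 side of 0, from Fcrls at 2.87 among the highest to Mpo at -3.80.

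The MS4A genes encode membrane proteins with 4 spans, several of which are expressed by macrophages, and their genes lie next to each other on chromosome 19. Of 9 tested members, 8 were higher, 4 of them called and 0 called lower, with a median log2 fold change of 1.66. The fitted changes ran from -3.38 to 3.60, and the members at both ends were uncalled. Ms4a6b (chromosome 19, 11516512 to 11531256 on mm10) measured 21.3, 38.6 and 14.4 CPM in Control and 130, 212 and 75.3 CPM in Tumor without Myelin. Each Tumor without Myelin library lay above every Control library. The log2 fold change was 2.48 ± 0.17 (n = 3 in each group), where ± here and below is the standard error of the main fit. That error rests on variation estimated over all 12 libraries, and not on the libraries of the compared groups alone. The adjusted p was the smallest of all genes, 0.00013 by edgeR. Leaving out any single library kept that p at 0.00388 or below.

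Ms4a6c (chromosome 19, 11469366 to 11482192) measured 56.1, 77.7 and 39.4 CPM in Control and 201, 264 and 99.9 CPM in Tumor without Myelin. The groups did not overlap, and the log2 fold change was 1.66 ± 0.14 (adjusted p = 0.000453). Its exons overlap those of BE692007 on the opposite strand, also called higher (1.41 ± 0.26, adjusted p = 0.0323, up to 0.198), and reads of the pair cannot be told apart without strand information. Ms4a4a had 3.20, 4.39 and 0.245 CPM in Control and 19.6, 17.7 and 5.77 CPM in Tumor without Myelin. Its lowest Tumor without Myelin library was still above the highest Control library, with a log2 fold change of 2.73 ± 0.41 (adjusted p = 0.0128, up to 0.0775).

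Ms4a14 was called as well (1.26 ± 0.21, adjusted p = 0.0199, up to 0.101). Ms4a7 measured 0.55 ± 0.12 with an adjusted p of 0.0665, and Ms4a6d measured 0.68 ± 0.15 with an adjusted p of 0.0760; both were uncalled. MS4A genes are close relatives, so reads could be split between them depending on how they were counted.

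**Figure D2:**
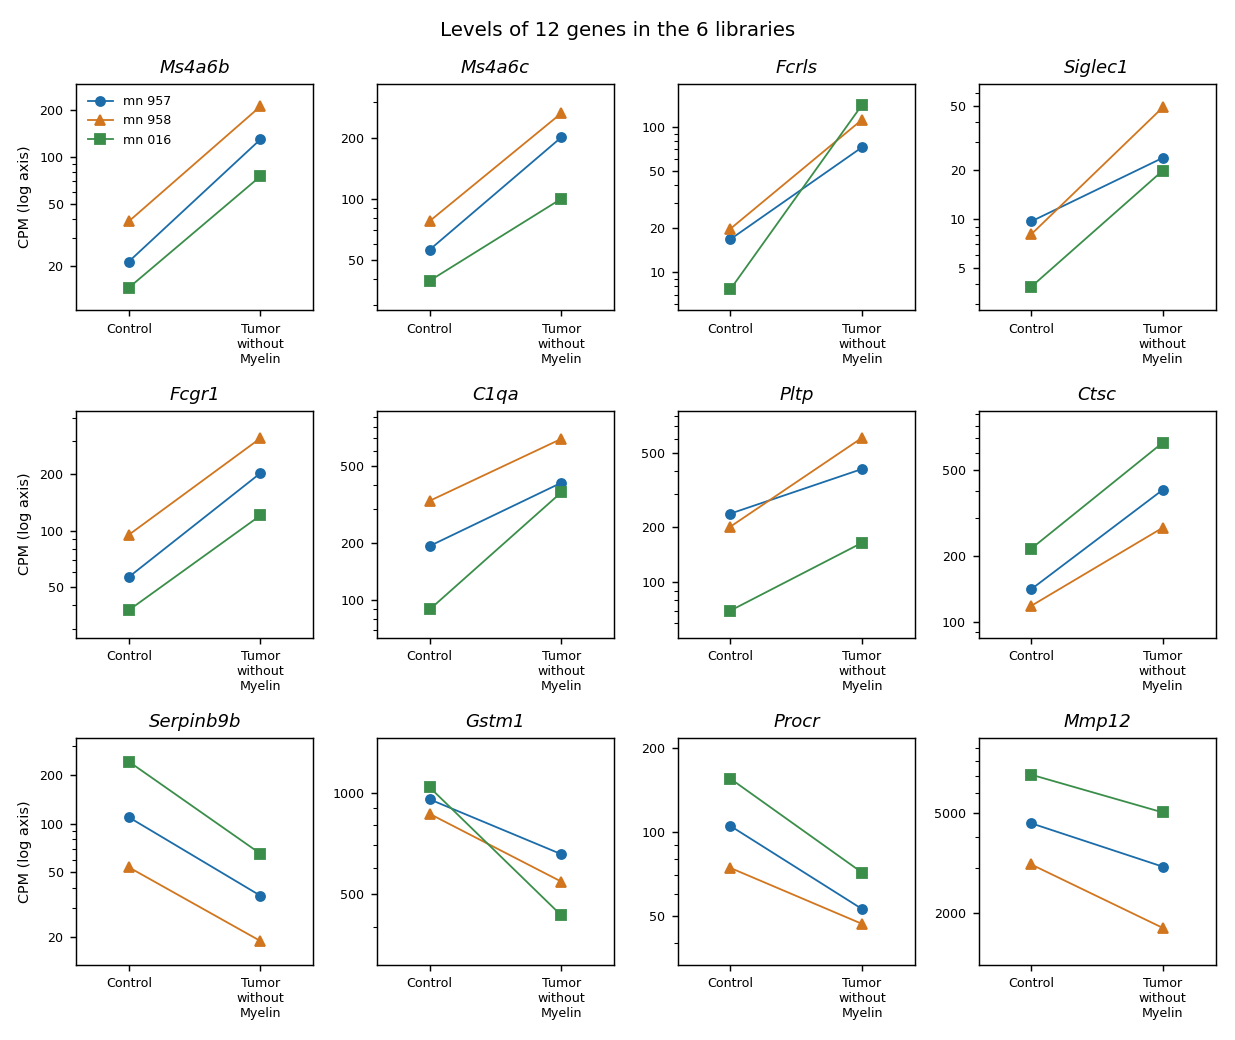
Levels of 12 genes in CPM (log axis) in the 3 Control and the 3 Tumor without Myelin libraries, with libraries of the same mn number joined by a line. Ms4a6b, Ms4a6c, Fcrls, Siglec1, Fcgr1, C1qa, Pltp and Ctsc are higher, and Serpinb9b, Gstm1, Procr and Mmp12 lower, in Tumor without Myelin in all 3 pairs.

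Receptors that bind antibody, sialic acid or lipid followed. Fcgr1, the high-affinity receptor for IgG, measured 56.6, 95.1 and 37.7 CPM in Control and 203, 311 and 121 CPM in Tumor without Myelin. All 3 values lay above the Control range, and the log2 fold change was 1.74 ± 0.22 (adjusted p = 0.0068, up to 0.0622). Fcgr4, an activating receptor for IgG2 antibodies, overlapped between the groups in level but was higher in each pair (0.73 ± 0.13, adjusted p = 0.0311, up to 0.187). The Fc gamma list holds 6 tested genes, all 6 of them higher, 2 called, with a median of 0.22; the abundant Fcgr3 measured 0.12 ± 0.06 (adjusted p = 0.631).

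Siglec1, also named sialoadhesin or CD169, binds sialic acids on other cells. It measured 9.69, 8.07 and 3.83 CPM in Control and 24.0, 49.1 and 20.0 CPM in Tumor without Myelin. The groups did not overlap, and the log2 fold change was 2.13 ± 0.26 (adjusted p = 0.00554). It was the only called gene of 6 tested sialic acid receptors, whose median was -0.00, and Siglecf was uncalled (-0.59 ± 0.31, adjusted p = 0.601). Cd300lf, an inhibitory receptor for phospholipids, had 6.92, 4.06 and 18.2 CPM in Control and 27.9, 19.5 and 46.7 CPM in Tumor without Myelin. Every Tumor without Myelin library exceeded every Control library, with 1.80 ± 0.25 on the log2 scale (adjusted p = 0.0108, up to 0.0718), while the median of the 7 tested CD300 genes was 0.01.

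Among 22 tested Toll-like receptors and adaptors, 18 were higher and 3 called, with a median of 0.21. The called members were Tlr1, which detects bacterial lipopeptides with a partner (1.27 ± 0.20, adjusted p = 0.0149, up to 0.0869), Tlr8, an endosomal receptor (0.87 ± 0.17, adjusted p = 0.0472, up to 0.211), and Ly86, or MD-1, the partner of the Toll-like protein CD180 (0.87 ± 0.13, adjusted p = 0.0123, up to 0.0765). Receptors and bridges for apoptotic cells had a median of 0.54, with 9 of 11 tested members higher and 2 called. Axl, a receptor tyrosine kinase for apoptotic cells, measured 86.0, 62.9 and 64.5 CPM in Control against 112, 140 and 134 CPM, with no overlap (0.87 ± 0.15, adjusted p = 0.0283, up to 0.170). Itgav, the integrin chain that binds bridged apoptotic cells, was called at 0.73 ± 0.15 (adjusted p = 0.0490, up to 0.232), whereas the Axl ligand Gas6 measured 0.75 ± 0.17 with an adjusted p of 0.0875.

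The microglia list held the gene with the highest change among the called genes at 10 CPM or more. Fcrls, an Fc receptor-like scavenger protein used as a microglia marker, measured 16.9, 19.9 and 7.65 CPM in Control and 72.5, 112 and 142 CPM in Tumor without Myelin. The groups were far apart, and the log2 fold change was 2.87 ± 0.35 (adjusted p = 0.00554). P2ry13, a receptor for ADP, rose from 0.586, 0.220 and 2.89 CPM to 9.97, 6.23 and 10.9 CPM (3.30 ± 0.59, adjusted p = 0.0283, up to 0.165).

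Tmem119, a membrane protein of microglia, measured 1.07, 0.604 and 2.55 CPM in Control and 1.95, 6.06 and 28.4 CPM in Tumor without Myelin. Its groups overlapped, and the higher mean came mainly from number 016 (2.64 ± 0.48, adjusted p = 0.0297, up to 0.177; without number 016, 2.09 with an adjusted p of 0.466). Olfml3, a secreted matrix protein, was called at 0.69 ± 0.13 (adjusted p = 0.0311, up to 0.166). Of the list's 10 tested genes, 8 were higher and 4 called, with a median of 1.01, made up of pair medians of 0.71, 0.39 and 1.85. Without number 016 the median was 0.47, with 2 calls.

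Other members of that list give the level of such transcripts in these libraries. P2ry12, the most used microglia receptor, stood at 0 to 0.932 CPM in Control and 1.43 to 3.58 CPM in Tumor without Myelin (2.20 ± 1.05, adjusted p = 0.556), and Siglech at 0 to 0.147 CPM and 0 to 0.729 CPM was too low to be tested. The summed list, which is mostly Trem2, ranged from 2034 to 2902 CPM in Control and from 2569 to 3256 CPM in Tumor without Myelin. Trem2 itself measured 2080, 2250 and 1620 CPM in Control against 2020, 2400 and 1420 CPM, lower in 957 and 016. Cx3cr1 had 103, 143 and 32.6 CPM against 133, 94.4 and 220 CPM, lower in 958. Sparc had 5.38, 0 and 11.5 CPM against 2.00, 0 and 11.4 CPM. The part of microglial cells or RNA in these changes was not tested. Aif1, which encodes the macrophage and microglia protein IBA1, measured 31.3, 70.5 and 14.5 CPM against 94.8, 191 and 68.7 CPM; the lowest Tumor without Myelin value fell just inside the Control range, but each pair rose (1.75 ± 0.18, adjusted p = 0.00209).

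C1q, the recognition molecule that starts the classical complement pathway, is built of 3 chains whose genes lie within chromosome 4, 136880129 to 136898803. C1qa measured 192, 330 and 89.8 CPM in Control and 410, 693 and 365 CPM in Tumor without Myelin, without overlap (1.36 ± 0.20, adjusted p = 0.0128, up to 0.0662). C1qb measured 1345, 2267 and 604 CPM against 2338, 3780 and 1775 CPM (1.01 ± 0.15, adjusted p = 0.0121, up to 0.0605). C1qc measured 1016, 1668 and 513 CPM against 1905, 2680 and 1524 CPM (1.04 ± 0.15, adjusted p = 0.0108, up to 0.0582).

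For C1qb and C1qc the groups overlapped, because the Control library of number 958 was high, while each number rose within its pair. Across the 15 tested complement genes 13 were higher, 3 were called and the median was 0.52. Cfp, properdin of the alternative pathway (1.38 ± 0.30, adjusted p = 0.0673), and C3ar1, the C3a receptor (0.48 ± 0.10, adjusted p = 0.0678), were uncalled.

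Genes that export cholesterol and build lipoproteins gave 3 calls among 18 tested targets of the oxysterol receptor LXR, 15 of which were higher, with a median of 0.30. Pltp, which transfers phospholipids between lipoproteins, measured 236, 201 and 70.4 CPM in Control and 412, 608 and 164 CPM in Tumor without Myelin. Number 016 was low in both groups, so the groups overlapped, and each pair rose (1.21 ± 0.13, adjusted p = 0.00289). Exons of Pltp overlap those of Ctsa on the opposite strand.

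Abca1, the exporter that loads cholesterol onto apolipoprotein A-I, measured 35.8, 39.8 and 3.73 CPM against 91.4, 137 and 73.1 CPM. The groups did not overlap, and the largest step was in number 016, whose Control was low (2.21 ± 0.42, adjusted p = 0.0347, up to 0.139). Apoe, the apolipoprotein that carries cholesterol in the brain, was already among the most abundant transcripts at 5893, 8970 and 2110 CPM and reached 8360, 14060 and 5109 CPM (0.81 ± 0.13, adjusted p = 0.0149, up to 0.0663), with overlapping groups. Abcg1, the exporter to high-density lipoprotein, was uncalled, with 718, 497 and 474 CPM in Control and 712, 618 and 530 CPM in Tumor without Myelin (0.15 ± 0.11, adjusted p = 0.763).

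Cholesterol synthesis genes, which cells lower when sterol is plentiful, gave 0 calls among 24 tested, 17 of them lower, with a median of -0.11. The lower median came from number 016, in which 2 of 24 were higher, against 12 of 24 in 957 and in 958, and without 016 it was 0.02. Sqle, the squalene epoxidase, measured 142, 110 and 223 CPM in Control and 126, 81.4 and 119 CPM in Tumor without Myelin, an overlap with a log2 fold change of -0.51 ± 0.13 (adjusted p = 0.151). Cyp51, the lanosterol demethylase, measured 103, 78.5 and 113 CPM against 96.3, 73.6 and 80.1 CPM (-0.24 ± 0.14, adjusted p = 0.664).

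Of 18 tested markers of lipid-laden macrophages, 10 were higher, Apoe was the only call, and the median was 0.06. Gpnmb, a glycoprotein of lipid-laden macrophages, measured 15509, 11222 and 17202 CPM in Control and 16198, 13401 and 16311 CPM in Tumor without Myelin (0.08 ± 0.09, adjusted p = 0.879). The lipid droplet coat Plin2 (0.19 ± 0.07, adjusted p = 0.363) and osteopontin, Spp1 (0.32 ± 0.09, adjusted p = 0.202), were uncalled.

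**Figure D3:**
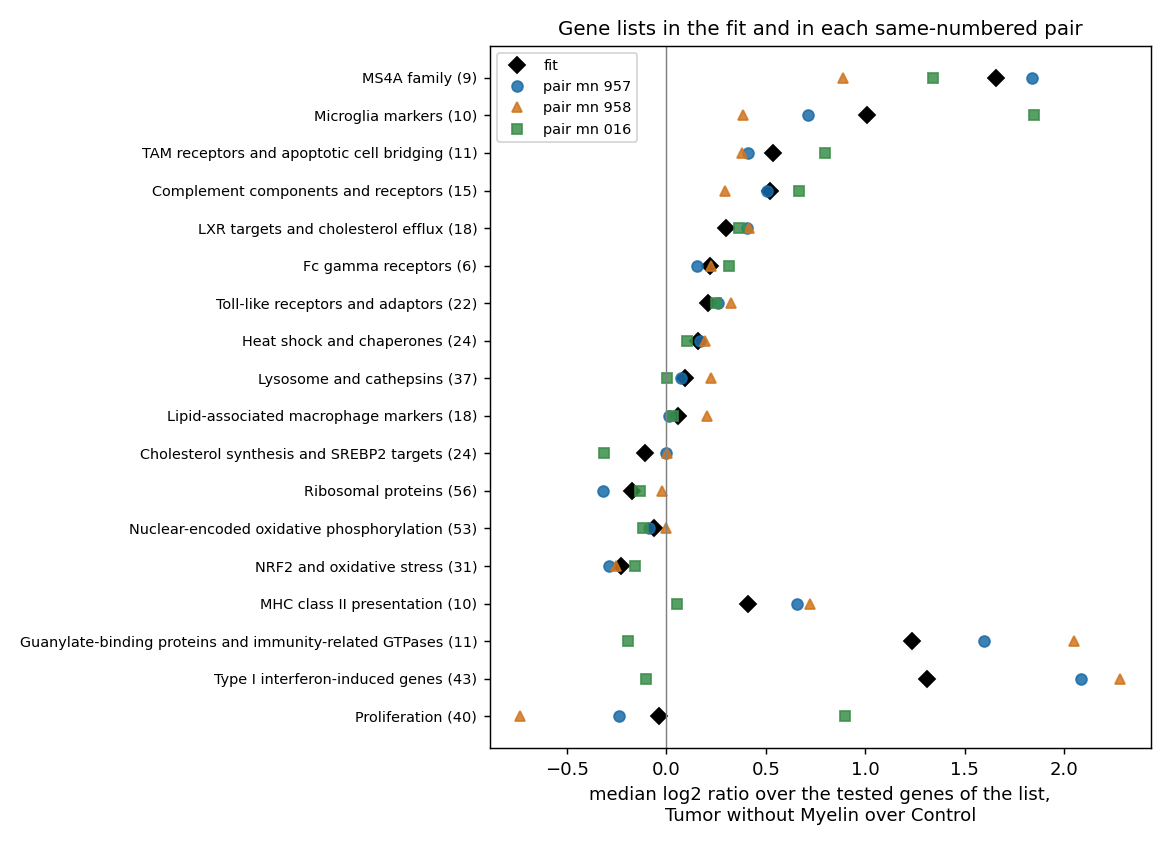
Median log2 ratio of Tumor without Myelin over Control (x axis) over the tested genes of 18 gene lists, with the number of genes in brackets (y axis). Diamonds come from the fit and coloured symbols from each same-numbered pair. The MS4A median is 0.89 or more in each pair, whereas number 016 parts from the others in the interferon, guanylate-binding protein and proliferation lists.

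Proteases and lysosomal enzymes included several calls. Ctsc, the cathepsin that activates granule serine proteases, measured 141, 118 and 217 CPM in Control and 405, 271 and 668 CPM in Tumor without Myelin. There was no overlap, and the log2 fold change was 1.46 ± 0.15 (adjusted p = 0.00209). Ctsh, an aminopeptidase cathepsin, was called at 0.54 ± 0.08 (adjusted p = 0.0121, up to 0.0775), and Lgmn, the asparagine-specific protease legumain, at 0.55 ± 0.10 (adjusted p = 0.0282, up to 0.150).

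Over the 37 tested genes of the lysosome and cathepsin list, 25 were higher and 2 called, with a median of 0.10. Mmp14, a membrane-bound matrix protease, measured 5.01, 6.54 and 3.83 CPM against 26.6, 41.2 and 7.90 CPM (2.00 ± 0.37, adjusted p = 0.0311, up to 0.194). Number 016 rose least, and without that number the log2 fold change was 2.53 (adjusted p = 0.000385). Mmp12, the macrophage elastase and a very abundant transcript, went the other way, with 4537, 3111 and 7079 CPM in Control and 3049, 1740 and 5011 CPM in Tumor without Myelin (-0.64 ± 0.09, adjusted p = 0.0128, up to 0.0746). Its groups overlapped, and it was lower in each pair.

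Other called genes that stood firm against leaving out a library have varied roles. Tgm2, a protein cross-linking transglutaminase, measured 102, 85.8 and 66.7 CPM in Control and 203, 202 and 147 CPM in Tumor without Myelin, without overlap (1.13 ± 0.11, adjusted p = 0.00159). Selenop, the selenium carrier of plasma, measured 442, 490 and 254 CPM against 824, 898 and 676 CPM (1.06 ± 0.14, adjusted p = 0.00677). Sat1, which acetylates polyamines for export, measured 554, 562 and 522 CPM against 843, 869 and 928 CPM (0.69 ± 0.08, adjusted p = 0.00554).

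Neither Selenop nor Sat1 overlapped between the groups. Il18bp, the soluble inhibitor of interleukin-18, measured 7.19, 6.86 and 6.87 CPM against 54.3, 101 and 25.3 CPM (2.78 ± 0.41, adjusted p = 0.0128, up to 0.0882). Its Control libraries were nearly equal and its Tumor without Myelin libraries spread widely, and its exons overlap those of Numa1 on the opposite strand. Slc9a9, a sodium-proton exchanger (1.65 ± 0.25, adjusted p = 0.0146, up to 0.0822), and Nxpe5 (1.48 ± 0.22, adjusted p = 0.0128, up to 0.0800) were also among the 15 genes with the highest change. Pf4, the chemokine CXCL4, measured 21.6, 57.2 and 53.9 CPM against 59.3, 110 and 130 CPM (1.23 ± 0.18, adjusted p = 0.0128, up to 0.0809).

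The 2 highest fitted changes belong to genes almost without counts in Control. Gpr35, a G protein-coupled receptor, had 1, 0 and 0 counts in Control and 28, 25 and 43 counts in Tumor without Myelin, a ratio of 103 after scaling, with a 95% interval of 18.1 to 4114 that covers counting error only. Gm4951, related to the interferon-inducible GTPases, had 0, 3 and 1 counts against 173, 281 and 5 counts, a ratio of 123 with an interval of 47.8 to 454. Nearly all counts of Gm4951 came from 957 and 958, and Gpr35 was spread over the 3 numbers; their adjusted p were 0.0211 (up to 0.0917) and, for Gm4951, 0.0323 (up to 0.197).

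Chaperones that fold proteins in the endoplasmic reticulum gave several calls. Hspa5, or BiP, the main chaperone and sensor partner there, measured 800, 620 and 1130 CPM in Control and 1400, 997 and 1864 CPM in Tumor without Myelin (0.74 ± 0.14, adjusted p = 0.0322, up to 0.190). Pdia6, a protein disulfide isomerase, measured 201, 191 and 298 CPM against 358, 270 and 536 CPM (0.73 ± 0.12, adjusted p = 0.0208, up to 0.125). Calr, calreticulin, measured 317, 298 and 400 CPM against 433, 439 and 609 CPM (0.54 ± 0.09, adjusted p = 0.0243, up to 0.153).

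Calr did not overlap between the groups, whereas Hspa5 and Pdia6 did, with each pair higher. Of 24 tested heat shock and chaperone genes, 16 were higher and these 3 were called, with a median of 0.16. Pdia3, another disulfide isomerase, was also called (0.55 ± 0.11, adjusted p = 0.0454, up to 0.227), and Manf (0.58 ± 0.12, adjusted p = 0.0517) and Hsp90b1 (0.58 ± 0.12, adjusted p = 0.0533) fell just outside the threshold.

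The promoters of Hspa5, Pdia6 and Calr are shown because they share a motif. The called Pdia3 was not among the genes found with it. The endoplasmic reticulum stress response element, searched on both strands as CCAAT and CCACG with 9 bases between them, a motif chosen after the called genes were known, occurs in 16 of the 9824 tested genes with a RefSeq promoter (0.163%), in 3 of the 61 called higher that have one and in 0 of the 21 called lower. Hsp90b1 holds it as well. The lines give the 250 bases before the start of each gene from RefSeq on GRCm38.p6, 5′ to 3′ on the strand of the gene. The match is in capitals, and that of Calr is on the opposite strand. For all motif counts given here, the window searched also ran a short way past the start, beyond the bases shown. Hspa5 lies at chr2:34771840-34772089 on the plus strand, Pdia6 at chr12:17266339-17266588 on the plus strand and Calr at chr8:84846932-84847181 on the minus strand.
Hspa5: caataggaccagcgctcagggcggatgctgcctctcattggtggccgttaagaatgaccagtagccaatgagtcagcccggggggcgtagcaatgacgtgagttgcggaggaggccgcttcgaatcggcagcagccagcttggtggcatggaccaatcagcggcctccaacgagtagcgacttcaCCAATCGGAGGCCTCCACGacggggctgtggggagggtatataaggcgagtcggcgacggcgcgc
Pdia6: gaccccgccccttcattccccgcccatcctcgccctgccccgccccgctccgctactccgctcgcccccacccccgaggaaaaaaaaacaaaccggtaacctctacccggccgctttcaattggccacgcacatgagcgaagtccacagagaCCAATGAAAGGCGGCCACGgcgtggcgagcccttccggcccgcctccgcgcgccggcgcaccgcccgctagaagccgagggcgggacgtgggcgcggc
Calr: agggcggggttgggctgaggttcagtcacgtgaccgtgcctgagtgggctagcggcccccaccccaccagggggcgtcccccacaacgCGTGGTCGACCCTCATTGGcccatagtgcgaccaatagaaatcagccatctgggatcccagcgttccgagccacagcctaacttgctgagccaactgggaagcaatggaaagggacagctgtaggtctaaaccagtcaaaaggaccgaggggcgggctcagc
A match is a description of the letters and says nothing of binding in these cells.

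Type I interferon genes showed the sharpest split by number. All 43 tested members had a fitted change above 0, with a median of 1.31, yet edgeR called 0, the lowest adjusted p being 0.0573 for Ifi204. On the same libraries with the same block, limma-voom called 13 of the 43 higher and DESeq2 called 6. In the pairs 957 and 958, all 43 members were higher in Tumor without Myelin, with median log2 ratios of 2.09 and 2.28. In the pair 016, 17 of 43 were higher, and the median was -0.10.

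Irf7, the factor that amplifies interferon production, measured 33.7, 29.4 and 36.4 CPM in Control and 398, 518 and 30.0 CPM in Tumor without Myelin (2.48 ± 0.88, adjusted p = 0.349). The Tumor without Myelin libraries of 957 and 958 were far above all others, and that of 016 was at the Control level. Ifit2, an interferon-induced inhibitor of translation, had 5.22, 5.38 and 22.6 CPM against 80.7, 71.5 and 23.9 CPM (2.24 ± 0.74, adjusted p = 0.291). Stat2, a signal carrier of the interferon receptor, had 37.2, 45.6 and 35.1 CPM against 115, 141 and 43.3 CPM (1.21 ± 0.26, adjusted p = 0.0665).

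With the libraries of number 016 left out, 39 of the 43 were called higher, with a median of 2.43; Irf7 then stood at 3.86 (adjusted p = 2.35e-05), Ifit2 at 3.84 (adjusted p = 0.0002) and Stat2 at 1.63 (adjusted p = 0.000842). Without 957 or without 958 the count was 0. Guanylate-binding proteins and immunity-related GTPases followed the same split, with medians of 1.60, 2.05 and -0.19. Gbp9 was their only called member in the full fit, at 8.95, 9.72 and 4.66 CPM against 39.5, 27.3 and 19.6 CPM, with no overlap (1.88 ± 0.34, adjusted p = 0.0283, up to 0.165); its exons overlap those of Gbp4 and Gbp8. The difference between the numbers was not tested, since each number has 1 library in a group.

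**Figure D4:**
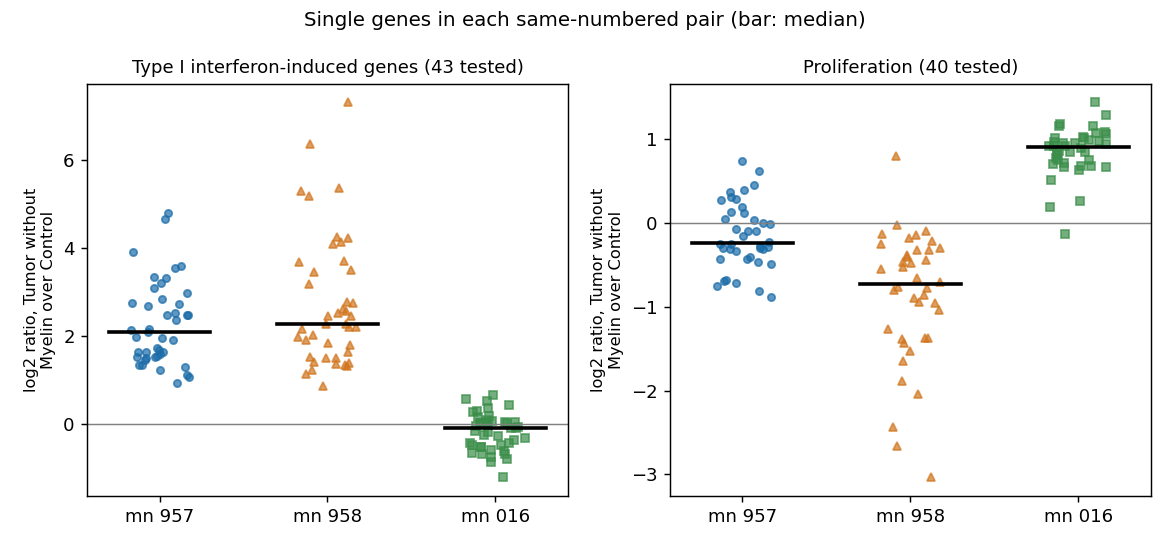
Log2 ratio of Tumor without Myelin over Control (y axis) for each tested gene of the interferon list (left, 43 genes) and the proliferation list (right, 40 genes) in the pairs 957, 958 and 016 (x axis); black bars are medians. All 43 interferon genes are above 0 in the first pairs and 17 in 016, while 39 of 40 proliferation genes are above 0 in 016.

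The core of the interferon-stimulated response element, searched on both strands as GAAA, any 2 bases and GAAA, is found in 19 of the 32 interferon-list members with a RefSeq promoter (59.4%), against 396 of the 9824 tested genes (4.03%). Among called genes it was present in 5 of 61 higher (8.20%), namely Aif1, Fcgr4, Selenop, Slfn9 and Tgfbi, and in 0 of 21 lower. Slfn9, of the Schlafen family, is shown as a called gene whose pairs all rose, 016 included, with 5.06, 11.0 and 15.9 CPM in Control and 16.1, 28.1 and 39.5 CPM in Tumor without Myelin (1.43 ± 0.22, adjusted p = 0.0149, up to 0.104). Fcgr4 is shown beside it. The 250 bases before the start lie at chr11:82991831-82992080 on the minus strand for Slfn9, where the match is on the opposite strand, and at chr1:171018676-171018925 on the plus strand for Fcgr4.
Slfn9: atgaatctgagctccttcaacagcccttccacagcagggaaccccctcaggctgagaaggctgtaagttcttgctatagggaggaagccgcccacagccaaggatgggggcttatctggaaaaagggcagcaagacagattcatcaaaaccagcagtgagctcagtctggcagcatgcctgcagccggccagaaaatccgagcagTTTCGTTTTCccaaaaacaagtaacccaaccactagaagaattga
Fcgr4: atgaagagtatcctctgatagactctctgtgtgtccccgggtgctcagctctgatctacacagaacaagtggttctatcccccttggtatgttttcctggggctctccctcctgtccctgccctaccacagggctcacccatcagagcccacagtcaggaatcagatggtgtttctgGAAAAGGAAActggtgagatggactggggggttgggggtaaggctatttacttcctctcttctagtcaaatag
Of the other motifs searched, the NF-kB site (GGGA, any 1 base, TTTCC) was in 1 of 61 called higher (Ms4a4a) and 0.519% of all, the AP-1 site TGANTCA in 13.1% of called higher, 19.0% of called lower and 6.43% of all, and the antioxidant response core TGANNNNGC in 52.5%, 47.6% and 48.0%. The sterol element TCACNCCAC was in 1.64% of called higher and 1.36% of all, and the LXR direct repeat (AGGTCA or AGTTCA, any 4 bases, AGGTCA or AGTTCA) in 0 of these windows.

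Proliferation genes split by number in another way. The pair 016 had 39 of 40 higher, with a median of 0.90, the pair 958 had 1 of 40 higher, with a median of -0.74, and the pair 957 had 14 of 40 higher, with a median of -0.24. Mcm2, a subunit of the replicative helicase, was the only call (0.73 ± 0.15, adjusted p = 0.0490, up to 0.232). The cell cycle marker Mki67 measured 20.3, 51.2 and 61.4 CPM against 16.4, 19.5 and 118 CPM, so that its direction depended on the number (-0.26 ± 0.33, adjusted p = 0.880).

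Among the genes called lower, Serpinb9b, a serine protease inhibitor of the granzyme B inhibitor family, measured 109, 53.7 and 241 CPM in Control and 35.9, 18.9 and 65.1 CPM in Tumor without Myelin. The levels of the numbers differed widely, so the groups overlapped, but each pair fell (-1.67 ± 0.19, adjusted p = 0.00296). Its relatives Serpinb9 (-0.52 ± 0.18, adjusted p = 0.308) and Serpinb1b (-1.05 ± 0.31, adjusted p = 0.209) were uncalled, and reads of close relatives could be split between them. Dio2, which activates thyroid hormone, measured 43.7, 19.6 and 52.2 CPM against 17.1, 7.66 and 9.90 CPM, without overlap (-1.72 ± 0.26, adjusted p = 0.0128, up to 0.0741).

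Antioxidant genes under NRF2 were mostly lower: 25 of 31 tested had a fitted change below 0, with a median of -0.23, and 2 were called lower and 0 higher. Gstm1, a glutathione transferase, measured 956, 866 and 1037 CPM in Control and 658, 546 and 434 CPM in Tumor without Myelin, without overlap (-0.82 ± 0.12, adjusted p = 0.0128, up to 0.0662). Nqo1, a quinone reductase, measured 24.3, 17.2 and 54.5 CPM against 12.6, 5.43 and 21.0 CPM (-1.33 ± 0.23, adjusted p = 0.0244, up to 0.147). Srxn1, sulfiredoxin (-0.52 ± 0.12, adjusted p = 0.0760), and Prdx1, a peroxiredoxin (-0.29 ± 0.07, adjusted p = 0.109), were uncalled.

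Outside that list, Mgst2, a microsomal glutathione transferase (-1.48 ± 0.26, adjusted p = 0.0280, up to 0.149), Ptgr1, a reductase of prostaglandins (-0.56 ± 0.10, adjusted p = 0.0283, up to 0.172), and the transcribed pseudogene Gstm2-ps1 (-0.85 ± 0.16, adjusted p = 0.0397, up to 0.186) were called lower. Gstm2-ps1 resembles the Gstm genes, so its reads are uncertain. Asns, asparagine synthetase, measured 129, 122 and 209 CPM against 108, 49.5 and 94.2 CPM (-0.90 ± 0.16, adjusted p = 0.0298, up to 0.184), and Mthfd2, a mitochondrial folate enzyme, was called at -0.62 ± 0.12 (adjusted p = 0.0347, up to 0.223).

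From the coagulation list 2 of 17 tested genes were called lower and 0 higher. Procr, the endothelial protein C receptor, measured 105, 74.5 and 155 CPM in Control and 53.1, 47.0 and 71.7 CPM in Tumor without Myelin, without overlap (-0.93 ± 0.12, adjusted p = 0.00677, up to 0.0564). F10, coagulation factor X, measured 21.3, 33.7 and 36.4 CPM against 15.2, 8.74 and 11.5 CPM (-1.34 ± 0.27, adjusted p = 0.0495, up to 0.247). Egr2, a transcription factor linked to alternative activation, was called at -0.86 ± 0.15 (adjusted p = 0.0277, up to 0.153). It was the only member of the alternative activation list called lower. Of the list's 17 tested genes, 12 were higher, with a median of 0.32 and pair medians of 0.00, 0.14 and 0.69. Its 2 members called higher were Tgm2 and the scavenger receptor Msr1 (0.58, adjusted p = 0.0311, up to 0.180).

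Of the 15 genes with the lowest change, those not yet given were Lat, an adaptor of antigen receptors (-1.44 ± 0.27, up to 0.177), Gramd4 (-1.22 ± 0.23, up to 0.184), Rassf8 (-1.17 ± 0.23, up to 0.247), Galnt9, a glycosyltransferase (-0.83 ± 0.13, up to 0.0952), and Mpo. Mpo, the myeloperoxidase of neutrophils and their precursors, had 2, 20 and 2270 counts in Control and 0, 0 and 175 counts in Tumor without Myelin (-3.80 ± 0.56, adjusted p = 0.0128, up to 0.230). Its signal came almost wholly from number 016, and without that number it was too low to be tested. Neutrophil markers summed to 141, 153 and 530 CPM over the Control libraries in rising order and to 115, 157 and 173 CPM over those of Tumor without Myelin; Elane was at 40.9 CPM in Control 016 and 0 to 9.23 CPM in every other library of the comparison, and their part in the result was not tested.

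Ribosomal protein genes leaned to lower values in the fit, where 55 of 56 tested had a change below 0 and the median was -0.17. None was called, with adjusted p of 0.548 or more. Their pair medians were -0.32, -0.02 and -0.13, and 0, 21 and 9 of 56 were higher, so 958 hardly shifted. For nuclear genes of oxidative phosphorylation 47 of 53 were below 0 in the fit, with a median of -0.06 and 0 called. Their pair medians were -0.09, -0.003 and -0.12, and 13, 24 and 10 of 53 were higher. Of the 10 tested genes of MHC class II presentation, all 10 were above 0 and 0 were called, with a median of 0.41; the pair medians were 0.66, 0.72 and 0.05, and without number 016 4 of 10 were called higher, with a median of 0.70. The list of inflammatory cytokines and NF-kB feedback genes had 19 of 27 tested members above 0 and 0 called, with a median of 0.19. Its pair medians were 0.37, 0.37 and -0.09, and without number 016 2 of 26 tested members were called higher. From other lists, Il1b was uncalled at 0 to 1.49 CPM over the 6 libraries (adjusted p = 0.545). The chemokine Ccl2 was uncalled and high only in number 016 (0.74 ± 0.42, adjusted p = 0.651). Its levels were 1.28, 2.31 and 194 CPM in Control against 1.85, 4.28 and 339 CPM.

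The 14 glioma and progenitor genes of the table summed to 7.62 to 18.5 CPM in Control and 7.25 to 16.2 CPM in Tumor without Myelin, and Sox2 and Sox10 had no count in any of the 6 libraries. Of the oligodendrocyte markers, Mobp and Fa2h were at 0 in all 6. That list summed to 112 to 136 CPM in Control and 129 to 158 CPM in Tumor without Myelin, mostly Mbp and Cnp, which were uncalled, with adjusted p of 0.721 and 0.211. Neuron markers reached at most 1.54 CPM in sum.

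The study also exposed macrophages to Full Tumor and to Myelin Alone. Both share the same Control libraries, so the comparisons are not independent and their values are only set side by side. The 75 genes called higher had a median log2 fold change against Control of 1.04 in Tumor without Myelin, 0.85 in Full Tumor and 0.17 in Myelin Alone. For the 25 called lower the medians were -0.85, -0.72 and -0.16. The genes were selected on their change in Tumor without Myelin, which by itself favours the larger median there. Full Tumor was compared with Tumor without Myelin directly, and 0 of 13414 genes were called (0%), with 520 genes at an unadjusted p below 0.05 and a smallest adjusted p of 0.132 by edgeR; DESeq2 called 15 and limma-voom 0.

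Tumor without Myelin differed directly from Myelin Alone in 89 genes that were higher (0.663%) and 36 that were lower (0.268%). Of the genes called against Control, 43 of the 75 higher and 12 of the 25 lower were also called against Myelin Alone, a comparison that shares the Tumor without Myelin libraries. Ms4a4a measured 3.06, 1.93 and 0.610 CPM in Myelin Alone (3.01 ± 0.42 higher in Tumor without Myelin, adjusted p = 0.00686), and Serpinb9b 142, 63.3 and 236 CPM (-1.87 ± 0.19, adjusted p = 0.00226). Nr4a1, an immediate early nuclear receptor, was called against Myelin Alone (2.65 ± 0.38, adjusted p = 0.00722) but not against Control (1.68 ± 0.36, adjusted p = 0.0665), where its levels in number 016 were 3.92 and 4.98 CPM.

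The cholesterol synthesis list had medians against Control of -0.11 in Tumor without Myelin, -0.58 in Full Tumor and -0.69 in Myelin Alone, and 4 of its 24 tested members were called higher in Tumor without Myelin than in Myelin Alone, with 0 lower. They include Sqle (0.72 ± 0.14, adjusted p = 0.0337), Cyp51 (0.82 ± 0.14, adjusted p = 0.0205) and, chosen for mention after its values were seen, Insig1, the sterol-sensing anchor in the endoplasmic reticulum (0.99 ± 0.18, adjusted p = 0.0292). Sqle stood at 67.2, 54.3 and 75.5 CPM in Myelin Alone and at 58.7, 43.0 and 67.0 CPM in Full Tumor, below all Tumor without Myelin libraries in both.

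Of the exporters, Abcg1 reached 1041, 1061 and 756 CPM in Myelin Alone and 1152, 1170 and 764 CPM in Full Tumor, above all 3 Tumor without Myelin libraries (-0.61 ± 0.11 for Tumor without Myelin minus Myelin Alone, adjusted p = 0.0291; 0.72 ± 0.11 for Full Tumor minus Tumor without Myelin, adjusted p = 0.132). Pltp and Abca1, in contrast, differed from Myelin Alone by 0.06 ± 0.13 (adjusted p = 0.932) and 0.09 ± 0.39 (adjusted p = 0.966). An adjusted p above the threshold does not show that the groups were equal.

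**Figure D5:**
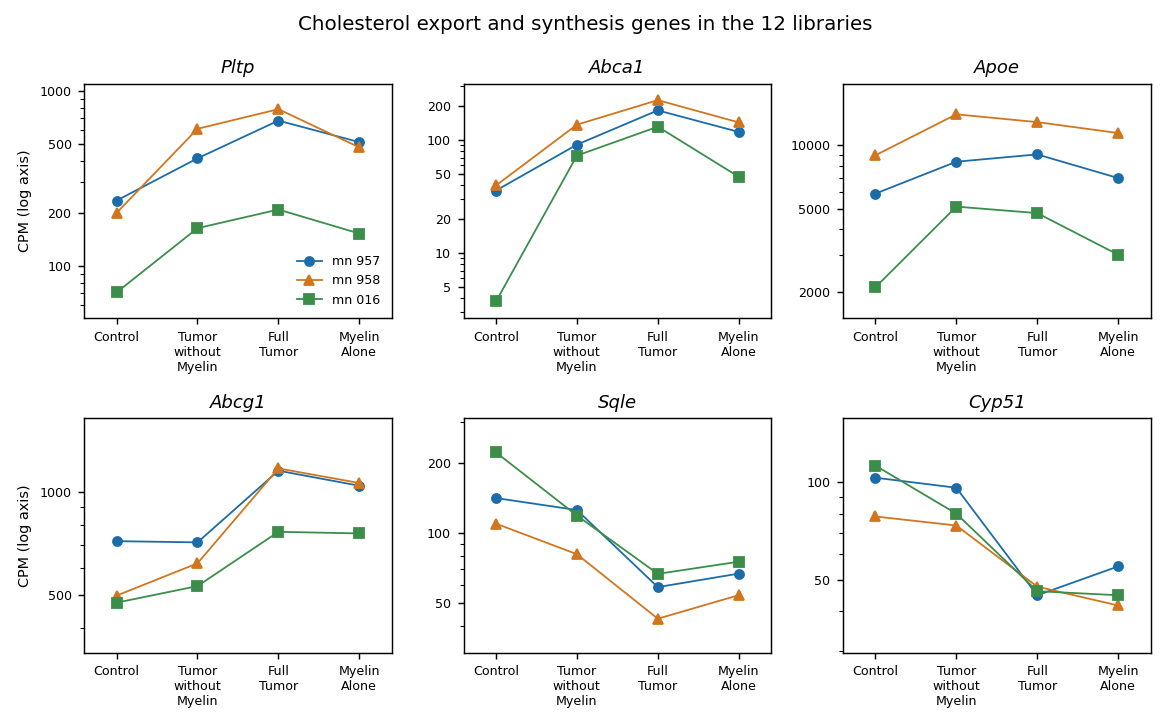
Levels of 6 genes in CPM (log axis) in all 12 libraries by group (x axis), with libraries of the same mn number joined by lines that mark the number and no order of groups. Pltp, Abca1 and Apoe are above Control in Tumor without Myelin in each number, whereas Abcg1, Sqle and Cyp51 in Tumor without Myelin stay nearer to Control than in Full Tumor or Myelin Alone.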

How the data were processed

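Polyadenylated RNA of sorted dTomato+ macrophages was sequenced in 12 mouse libraries, 3 in each of 4 groups. The authors deposited raw counts per gene in 1 table, whose whole numbers per library are not normalized. The genome build is mm10 per the submitters' processing notes, while aligner, counting tool and strand setting were not given in the sources used here. Libraries were grouped by the treatment in their labels.

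Genes with enough counts by edgeR's filterByExpr were kept (13414 of 24728), scaled by TMM and tested in R 4.3.3 with the quasi-likelihood test of edgeR 4.0.16 on all 12 libraries, with group and mn number as terms and Benjamini-Hochberg adjustment over all tested genes. CPM values were computed here from the counts and TMM-scaled library sizes of the tested genes, where 3 counts equal 0.147 to 0.182 CPM, and they were not divided by transcript length, so levels are not compared between genes. The pairing came with the definition of the comparison and was not chosen from the correlations that follow. All 18 same-numbered pairs of libraries deviated together from their group means (r of 0.12 to 0.631, median 0.329). For Control with Tumor without Myelin, r was 0.157, 0.39 and 0.522. Of 12 libraries, 11 correlated best with their own number. In 3 simulations, 200 of 13414 genes were changed between these 2 groups. The paired test recovered 47.7% of 2-fold and 70.3% of 4-fold changes, with a mean of 7 false calls. The unpaired test recovered 11% and 55%, with 0 false calls. The simulated levels followed the mn number and carried the same change in all 3 pairs, which favours the paired test by construction. These shares therefore do not test the choice of the block, and changes that differ between numbers were not simulated.

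Named genes were drawn from those picked by a rule. It took the 15 highest and 15 lowest called genes whose mean reached 10 CPM in either group and whose 3 pairs agreed in direction. Up to 6 called and 2 uncalled members of each gene list by p, and a fixed set of genes, were added. So were the 6 highest and 6 lowest called genes of each comparison with Full Tumor and Myelin Alone. Not every gene picked is described, and the rule does not set which are. Among those left out are the fixed genes Arg1, Fabp5 and Fdft1 and the called genes Lpin2, Hfe, Dusp6, Zfp36 and Ndrg1. Gm4951, Gpr35, Lgmn, Mthfd2, Ptgr1, Sat1, Selenop, Slfn9, Tgfbi, BE692007, Csf1r, Cd68, Elane, Insig1, Siglech, Sox2, Sox10, Mobp and Fa2h, and genes that overlap a called one, fall outside this rule and were chosen after their values were seen. Cx3cr1 and Sparc fall outside the rule too and were chosen likewise. The comparison, the gene lists and this rule were chosen with earlier results of these data known. Alternatives were the unpaired fit, the 6 libraries alone, no filter, library totals, DESeq2 size factors, DESeq2 1.42.0, limma-voom (limma 3.58.1) and leaving out each library or each number. Promoters were read from RefSeq on GRCm38.p6. Genes below the filter were left out of the tests.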

Additional observations from a re-analysis of the deposited data

How the results depend on the processing

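The count of 75 genes higher and 25 lower in Tumor without Myelin than in Control depended on the settings, while each of the 100 genes kept its direction in all settings that could test it. Without the replicate block 0 were higher and 0 lower, and 1 gene was called against Myelin Alone where the paired fit called 125. With only the 6 libraries compared, 5 were higher and 1 lower. Without a filter on low counts 143 were higher and 45 lower, 5 genes were called between Full Tumor and Tumor without Myelin, and 246 against Myelin Alone. DESeq2 called 222 higher, 99 lower, 15 between Full Tumor and Tumor without Myelin and 434 against Myelin Alone, and limma-voom called 139 higher and 212 against Myelin Alone. The cause of these differences was not tested. With library totals alone, 62 were higher and 31 lower, and the median of all genes was -0.04.

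Leaving out 1 library or 1 number gave 3 to 142 genes higher and 1 to 25 lower, 0 to 1 between Full Tumor and Tumor without Myelin, and 1 to 211 against Myelin Alone. Of the uncalled genes named, Mki67 and Gpnmb changed direction: Mki67 was at 0.21 without the block and 0.073 with limma-voom, and ran from -0.89 to 0.35 as libraries were left out, and Gpnmb ran from -0.020 to 0.18. In simulated data of the same depth, with the same change in each pair, the paired test found 47.7% of 2-fold changes. An uncalled gene is therefore not shown to be level.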

Other observations

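Among gene lists not described above, the 17 tested chemokines had 12 members above 0 and 2 called higher, Cxcl16 and Pf4, with a median log2 fold change of 0.33. Cxcl16, a transmembrane chemokine that also binds oxidised lipid, was called at 0.55 ± 0.09 (adjusted p up to 0.132 when 1 library was left out), and its exons overlap those of Zmynd15. The 15 tested chemokine receptors had a median of 0.62 and 0 calls. For the 22 tested genes of MHC class I and the immunoproteasome the pairs 957, 958 and 016 had medians of 0.34, 0.52 and -0.20, and Calr and Pdia3 were the 2 called higher.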
